A study of Homo sapiens with 8 samples.

Results

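KRTAP3-1 and KRTAP2-3 are 2 keratin-associated protein genes of human chromosome 17. They were chosen by their log2 fold change in TFAP2C KD, where they had the largest rises of the TFAP2C count table among the genes that passed the test at a mean log2 CPM (read count scaled to the library's total) of at least 1, so their values in that contrast are a description and carry no test here. They are 2 of the 42125 genes listed in that table and 2 of the 23393 listed in the table of the UBA2 experiment. Both were read beside the other KRTAP genes of chromosome 17, which are 32 in the first table and 31 in the second, and beside 52 and 50 neighbour genes within 0.5 Mb of the cluster.

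The counts come from 8 mRNA-seq libraries of HCT116, a colorectal cancer line of human origin, and form 4 groups of 2 replicates. All 8 libraries came from cells that stably carry a Tet-On shRNA against SAE2, which is another name of UBA2, so the cells of the TFAP2C experiment carry it too. In the TFAP2C experiment, siRNA was given for 48 hrs, either a control or one that targets TFAP2C. In the UBA2 experiment they received DMSO (no Dox) or 1 μg/mL of doxycycline (Dox), which switches on the shRNA, for 5 days. Whether the stable cells are 1 clone, and whether the replicates are separate cultures, is not given in the sources used here, so p-values measure only the spread between these libraries.

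Keratin-associated proteins are small matrix proteins of the hair shaft. In the cortex and cuticle of the hair they crosslink the filaments of hair keratins, largely through disulfide bonds between cysteines, and KRTAP2 and KRTAP3 are high-sulfur subfamilies of this kind. Their genes are short, lack introns in their coding part and lie side by side within the type I keratin cluster, where near-identical copies are common, so that short reads may not tell neighbours of a subfamily apart. TFAP2C is a DNA-binding factor of the AP-2 family, and UBA2 is the catalytic subunit of the SUMO-activating enzyme.

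The start regions of the genes are shown first, because the pair could share sequence there and because the paralogs with few reads are close relatives. The RefSeq promoter windows (GRCh38.p14, 250 bases before to 50 after the annotated start) of both genes hold the letters TATATAA, as do 9 of the 33 chromosome 17 KRTAP windows and 2.57% of all 35116 windows, with both strands searched. Below are 120 bases of KRTAP3-1, KRTAP2-3 and 1 paralog of each, 5′ to 3′ on the minus strand, with TATATAA in capitals. They lie at chr17:41009129-41009248, chr17:40999910-41000029, chr17:41060115-41060234 and chr17:41065910-41066029.
KRTAP3-1: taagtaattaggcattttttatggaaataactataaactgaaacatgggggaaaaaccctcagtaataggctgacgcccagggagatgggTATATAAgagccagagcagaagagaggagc
KRTAP3-2: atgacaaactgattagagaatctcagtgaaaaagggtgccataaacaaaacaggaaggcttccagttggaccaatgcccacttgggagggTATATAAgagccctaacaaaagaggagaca
KRTAP2-3: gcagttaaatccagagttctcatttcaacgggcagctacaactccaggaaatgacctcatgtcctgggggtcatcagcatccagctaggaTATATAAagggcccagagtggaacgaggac
KRTAP2-4: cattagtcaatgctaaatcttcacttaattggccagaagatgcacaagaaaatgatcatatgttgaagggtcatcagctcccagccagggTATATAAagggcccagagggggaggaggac

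Read position by position from TATATAA, KRTAP2-3 had the same base as KRTAP2-4 at 65 of the 120 positions and at 27 of the last 30. KRTAP3-1 had the same base as KRTAP3-2 at 50 positions. KRTAP3-1 and KRTAP2-3 shared 35 positions with each other, fewer than either shared with the paralog shown. The letters TATATAA match in every pair by design. Aligned with gaps, KRTAP3-1 was 54.8% identical to KRTAP2-3 and 56.5% to KRTAP3-2, which is close, and KRTAP2-3 was 68.3% identical to KRTAP2-4. The AP-2 consensus GCCNNNGGC, searched on both strands, was in 0 of the 33 chromosome 17 KRTAP windows and in 23.2% of all windows. This says only that these letters are not in these 300 bases.

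The targeted gene was read first in each experiment. TFAP2C was at 18.9 and 20.5 CPM (scaled by TMM) in control siRNA and at 3.46 and 4.30 CPM in TFAP2C KD, and its log2 fold change was -2.34 (SE 0.13, adjusted p = 7.67e-06 by the quasi-likelihood test of edgeR). UBA2 was at 162 and 146 CPM without Dox and at 147 and 153 CPM with Dox, with a log2 fold change of -0.036 (95% interval -0.15 to 0.078, adjusted p = 0.766). UBA2 mRNA was thus not measurably lower with Dox, and these samples are called the libraries labelled UBA2 KD. Libraries held 20785035 to 24465109 counts in the TFAP2C experiment and 18213739 to 20607813 in the UBA2 experiment, where 3 reads correspond to at most 0.144 and 0.167 CPM. The epithelial markers EPCAM, CDH1, KRT8, KRT18, KRT19 and CLDN7 were detected in every library, but VIL1 had at most 3 reads in a library and 0 in both without Dox, whereas COL1A2, DCN and LUM of the 6 fibroblast markers were at 0 in all 8 libraries, and the fibroblast markers summed to 15.1 to 48.3 CPM, nearly all of it COL1A1.

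In TFAP2C KD both genes rose together from a low level. KRTAP3-1 had 46 and 45 reads in control siRNA and 184 and 159 reads in TFAP2C KD, or 1.89 and 2.16 CPM against 7.67 and 7.11 CPM. Every TFAP2C KD library was above every control library, and the smallest ratio between any pair of them was 3.30. The mean went from 2.02 ± 0.191 CPM in control siRNA to 7.39 ± 0.393 CPM in TFAP2C KD (SD, n = 2 each), a ratio of 3.66 and a log2 fold change of 1.87 (SE 0.16).

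KRTAP2-3 had 49 and 59 reads in control siRNA and 183 and 189 in TFAP2C KD, or 2.01 and 2.83 CPM against 7.63 and 8.46 CPM. Here too the groups were separate, with ratios between 2.70 and 4.21 over the library pairs. The mean went from 2.42 ± 0.578 to 8.04 ± 0.585 CPM (SD, n = 2 each), a ratio of 3.32 and a log2 fold change of 1.74 (SE 0.17). The control libraries differed more for KRTAP2-3 than for KRTAP3-1. Both genes were thus past the test in the upward direction, as chosen, which 0.260% of the 14991 tested genes were, and 22.4% of tested genes had both TFAP2C KD libraries above both controls.

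Among the genes that passed at that level, the next ones after KRTAP2-3 were NAV3, a microtubule-associated protein, with a log2 fold change of 1.55 (SE 0.12), and DHRS2, a short-chain dehydrogenase, with 1.38 (SE 0.10). These lie just outside the choice. A rise of at least 1 on the log2 scale was seen in 23 genes, or 0.153% of those tested.

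Per length of the gene model the pair had close levels in control siRNA. KRTAP3-1 was at 2.75 ± 0.259 RPKM (CPM divided by the length of the gene model in kilobases) in control siRNA and KRTAP2-3 at 2.77 ± 0.662 RPKM, and these means differed by less than the SD of either. In TFAP2C KD they were at 10.0 ± 0.535 and 9.20 ± 0.670 RPKM (SD, n = 2 each), which differed by more than the SD of either. How far repeated sequence, described further on, lowers the level of KRTAP2-3 was not tested. In control siRNA 37.2% and 37.4% of the tested genes had a lower RPKM than KRTAP3-1 and KRTAP2-3, so both were in the lower part of the expressed genes before the knockdown. In bulk RNA, more cells with a transcript and more transcript per cell cannot be told apart.

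**Figure D1:**
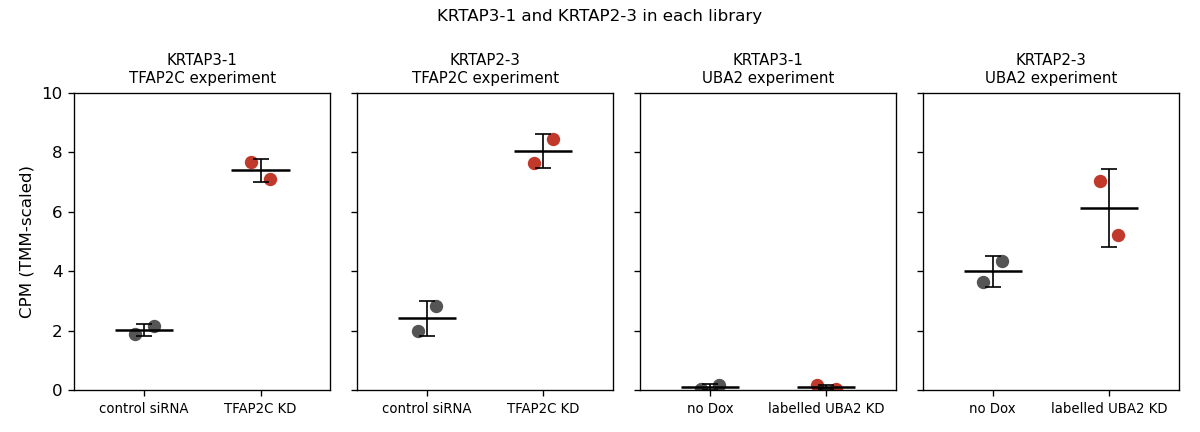
CPM of KRTAP3-1 and KRTAP2-3 in each library of the TFAP2C and UBA2 experiments (points), with the mean (line) and SD (bar) of 2 libraries a group. Both genes sit at 1.89 to 2.83 CPM in control siRNA and at 7.11 to 8.46 CPM in TFAP2C KD, whereas KRTAP3-1 is near 0 throughout the UBA2 experiment.

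The other KRTAP genes of the cluster stayed far below the pair in reads, but their pooled reads were higher in TFAP2C KD by a ratio as large as that of the pair. Of the 32 listed in the TFAP2C table, 24 were at 0 in all 4 libraries, and the remaining 8 had at most 4 reads in a library, so that none reached the level needed for the test. All 32 together held 4 and 3 reads in control siRNA and 15 and 12 in TFAP2C KD, and both TFAP2C KD libraries were above both controls. Corrected for depth, the ratio of these 27 reads to 7 was 3.76 with a 95% interval of 1.6 to 10.2, and without the KRTAP2 and KRTAP3 genes it was 3.12 (16 reads to 5, interval 1.09 to 10.9). These intervals cover counting error only, and the pooling was added after the reads had been seen. With the filter on low counts removed, 8 could be tested and 0 passed by edgeR, with 0 at an unadjusted p under 0.05 and a lowest adjusted p of 0.769. At these counts a change of the size seen for the pair was not detectable in single genes.

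The paralogs of the pair had few counted reads. KRTAP3-2 had 0 and 0 reads in control siRNA and 1 and 2 in TFAP2C KD, and KRTAP3-3 had 0 in all 4 libraries. KRTAP2-2 and KRTAP2-4 were listed with the same reads, 1 and 0 in control siRNA and 3 and 1 in TFAP2C KD, and KRTAP2-1 had 0 throughout. KRTAP3-1 therefore held 98.8% to 100% of the reads of the KRTAP3 genes in a library, and KRTAP2-3 held 96.1% to 100% of those of the KRTAP2 genes. With such shares, summing all rows of a subfamily could hardly change the log2 fold changes, which were then 1.89 and 1.75. Reads from sequence shared among the KRTAP2 genes may be missing from all their rows, which was not tested. Of the other subfamilies, KRTAP4-12, with 1 and 2 reads against 3 and 4, and KRTAP4-1, with 0 and 1 against 3 and 2, had the most.

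**Figure D2:**
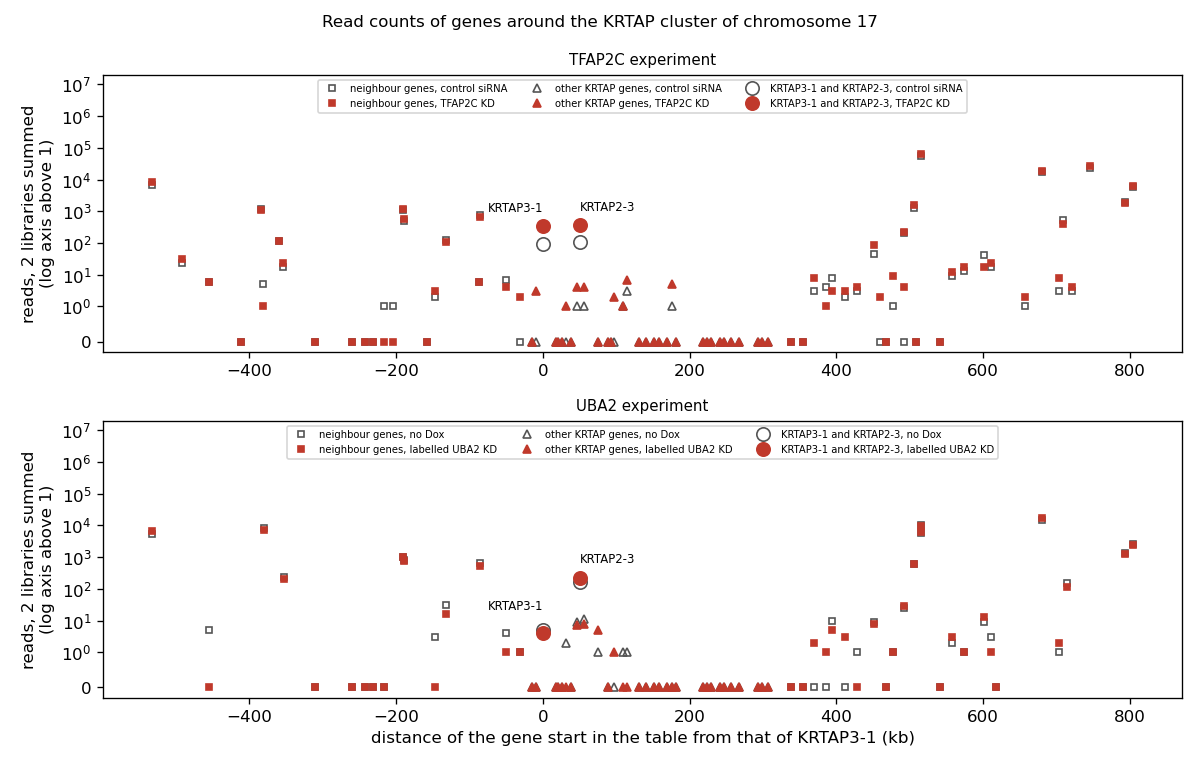
Reads of each gene of the region, summed over the 2 libraries of a group (vertical, log axis above 1), against the distance of its start from that of KRTAP3-1 (horizontal, kb). In the TFAP2C experiment KRTAP3-1 and KRTAP2-3 (circles) rise from about 100 reads in control siRNA, and the other KRTAP genes (triangles) lie at 0 to 7 reads. In the UBA2 experiment KRTAP3-1 lies at 5 reads without Dox and 4 with Dox, and some of the other KRTAP genes lie above 7. Genes listed with an interval of many Mb are left out.

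Whether reads of one gene could be counted on another was read from the sequence itself, since the reads were 51 bases long. In the GRCh37 genome, 0 of the 558 windows of 51 bases in the single-exon transcript of KRTAP3-1 were found more than once. For KRTAP3-2 and KRTAP3-3 the share was 11.6% and 11.2%. The coding sequence of KRTAP3-1 was identical to that of KRTAP3-2 and KRTAP3-3 at 74.4% of positions, while those 2 were 98.0% identical to each other. The spliced transcript of the gene, described further on, had 8 of 606 windows (1.32%) found more than once, all touching its upstream exons. However, 96 of the 606 cross a splice junction and are not in the genome uncut, so this search could not find them repeated. Of the 131 windows touching the upstream exons, 35 were in the genome uncut, and 8 of these were found more than once. Exact matches to the single exon could thus be placed on 1 site.

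KRTAP2-3 was different. Of its 825 windows, 326 (39.5%) occurred more than once, against 66.1% in KRTAP2-1, 62.5% in KRTAP2-2 and 52.5% in KRTAP2-4. Of the 334 windows within its coding sequence, 283 were identical in another KRTAP2 gene. That sequence had 1 difference from that of KRTAP2-4 over 384 bases, 2 from that of KRTAP2-1, and was 95.8% identical to that of KRTAP2-2. Over whole exons the identity with KRTAP2-4 was 69.7%. The parts outside the coding sequence thus set the copies apart, and a read from within it could belong to any of several genes.

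Below are 2 windows of KRTAP2-3, from GRCh37 on the minus strand, that show both cases. The shared window at chr17:39216222-39216272 was found 4 times in the genome and lies in all 4 KRTAP2 genes. The other, at chr17:39215970-39216020, was found 1 time and is the first window along the coding sequence that is identical to none of the copies. It has 1 mismatch to KRTAP2-1, 3 to KRTAP2-2 and 1 to KRTAP2-4. All 334 coding windows lay within 2 mismatches of another KRTAP2 gene. The capital marks the base that differs from KRTAP2-1.
shared window: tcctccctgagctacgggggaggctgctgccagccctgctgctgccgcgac
window found 1 time: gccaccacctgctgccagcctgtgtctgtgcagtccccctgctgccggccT

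**Figure D3:**
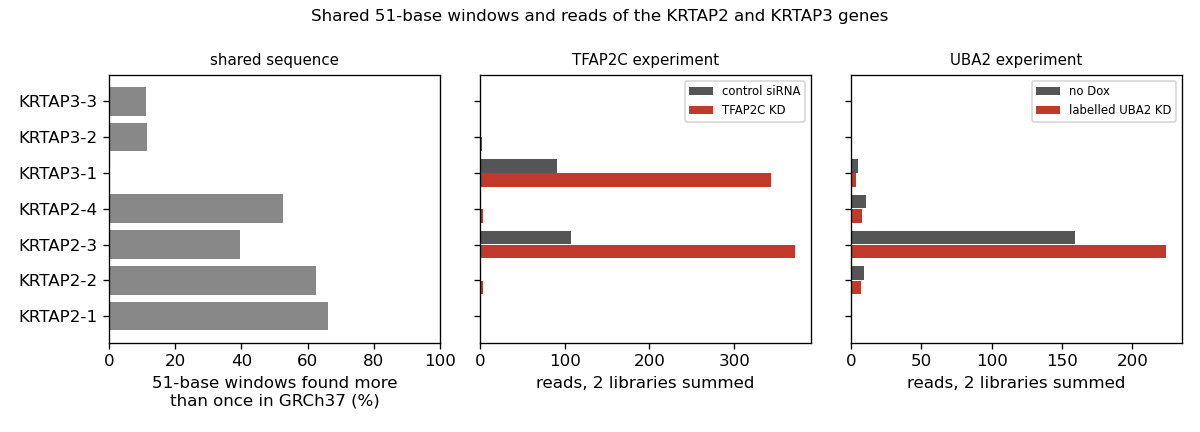
Percent of 51-base windows of each KRTAP2 and KRTAP3 gene found more than once in GRCh37 (left), and the reads counted on that gene, summed over 2 libraries, in the TFAP2C (middle) and UBA2 (right) experiments. The single-exon transcript of KRTAP3-1 has no repeated window and KRTAP2-3 has 39.5%, and the reads stand almost wholly on these genes in the TFAP2C experiment.

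The neighbour genes were compared next, to see whether the whole region rose. Of the 52 neighbours in the TFAP2C table, 11 were at 0 and 20 could be tested. By edgeR, 0 of the 20 passed an adjusted p of 0.05, where 0.740% of all tested genes did (0.480% as falls), and 7 had an unadjusted p under 0.05, where 12.6% of all tested genes did. Of the 7, TNS4, KRT32, KRT15 and KRT19 were higher, and KRT23, KRT16 and HAP1 were lower. The Wald test of DESeq2 also called 0 of the neighbours. The median log2 fold change of the 20 was 0.052, against -0.0038 over all tested genes, and 13 of the 20 lay above 0.

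The nearest tested gene on the lower side was KRT23, a type I keratin 70.9 kb from KRTAP3-1, with a log2 fold change of -0.23 (SE 0.10, adjusted p = 0.372 by edgeR). The nearest on the higher side was KRT32, a type I keratin of the hair cuticle, 399.7 kb from KRTAP2-3. KRT32 had 26 and 20 reads in control siRNA and 44 and 40 in TFAP2C KD, and its log2 fold change of 0.83 (SE 0.25) did not pass (adjusted p = 0.196). The members themselves lie 39.9 kb apart in that table. Thus no gene measured between KRT23 and KRT32 other than the pair had enough reads to be tested.

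Among further neighbours, chosen after their values were seen, HAP1 had a log2 fold change of -0.47 (adjusted p = 0.126 by edgeR), KRT15, a keratin of basal cells, had 0.33 (adjusted p = 0.144), and KRT19, a keratin of simple epithelia, had 0.23 (adjusted p = 0.208). TNS4 had 0.23 (SE 0.069, adjusted p = 0.193 by edgeR), with both TFAP2C KD libraries above both controls. KRT16, a keratin of wounded epidermis, had the lowest log2 fold change at -1.30 (SE 0.43, adjusted p = 0.234). Calls among the neighbours depended on which library was left out, and so did the calls over all genes. Whether the share called differed between them was not tested.

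**Figure D4:**
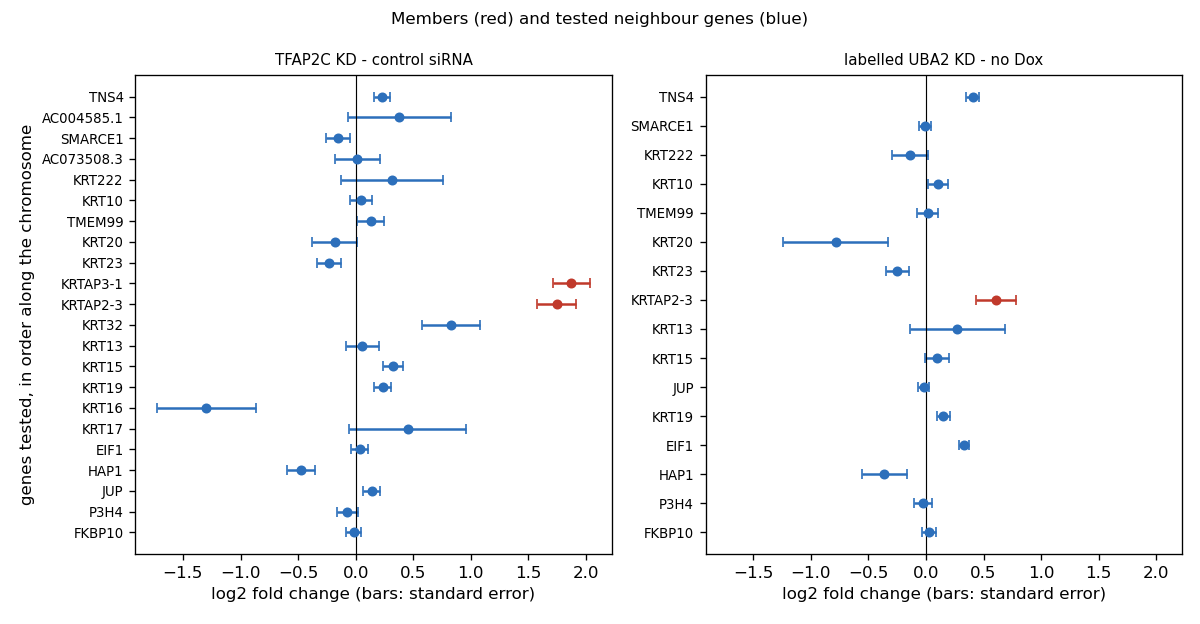
Log2 fold change (horizontal; bars are standard errors) of KRTAP3-1 and KRTAP2-3 (red) and of the tested neighbours (blue) in order along chromosome 17, in TFAP2C KD (left) and in the libraries labelled UBA2 KD (right). The pair stands at 1.87 and 1.74 on the left, with KRT32 next at 0.83, and genes listed with an interval of many Mb are left out.

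In the UBA2 experiment KRTAP2-3 was again detected in every library. It had 68 and 91 reads without Dox and 127 and 97 in the libraries labelled UBA2 KD, or 3.63 and 4.36 CPM against 7.05 and 5.21 CPM. The groups did not overlap, as in 25.5% of the tested genes, but the smallest ratio between libraries was 1.19 and the largest 1.94. The mean was 4.0 ± 0.515 CPM without Dox and 6.13 ± 1.30 CPM with Dox (SD, n = 2 each), a ratio of 1.53. The log2 fold change was 0.61 (SE 0.17, 95% interval 0.26 to 0.96), which passed at an adjusted p of 0.0199 by edgeR, as did 5.52% of the 13381 tested genes in the upward direction.

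This call rested on single libraries and on the tool. The adjusted p was 0.232 by the Wald test of DESeq2 and 0.0816 with all 8 libraries in the same edgeR fit. It was 0.109 without no Dox replicate 1 and 0.342 without UBA2 KD replicate 1, where the log2 fold change was 0.38. With the KRTAP2 rows summed, the log2 fold change was 0.53 (adjusted p = 0.0358 by edgeR).

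KRTAP3-1 was close to absent from the UBA2 table. It had 1 and 4 reads without Dox and 3 and 1 in the libraries labelled UBA2 KD, below the filter, so it was not tested. The ratio of 4 reads with Dox to 5 without, corrected for depth, was 0.864 with a 95% interval of 0.172 to 4.02, which covers counting error only. This interval holds the ratio seen in TFAP2C KD as well as no change, so a difference was not detectable at this depth.

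The gene model of KRTAP3-1 differed between the tables. The TFAP2C table, with positions of GRCh38, lists it at chr17:41008521-41019324 on the minus strand, a span of 10.8 kb with 0.736 kb of exons. The UBA2 table, with positions of hg19, lists chr17:39164774-39165366, a model of 0.592 kb. In GENCODE (GRCh37) the gene has a single-exon coding transcript of 608 bases and a spliced transcript without a defined coding part. The latter adds exons of 59 and 72 bases that lie 10.2 and 7.73 kb upstream. The table gives no counts per exon, so which exons held the 45 to 184 reads of the TFAP2C experiment is not given. The levels of KRTAP3-1 in the 2 tables cannot be compared, as gene model, table and culture cannot be told apart.

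For KRTAP2-3 the models were close, at chr17:41059240-41060114 (0.874 kb, GRCh38) and chr17:39215493-39216344 (0.851 kb, hg19), both on the minus strand. It was at 4.70 ± 0.605 RPKM without Dox and 7.20 ± 1.53 RPKM in the libraries labelled UBA2 KD (SD, n = 2 each).

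Because the spliced transcript begins elsewhere, its start region in GRCh37 was searched too. The 300 bases around it held 0 matches to TATATAA and 1 to the AP-2 consensus, at -176 from the start. The 120 bases at chr17:39175678-39175797 on the minus strand are shown with this match in capitals. A match of letters is a description and not a binding site, and 23.2% of all RefSeq windows of the same length hold one.
upstream start of KRTAP3-1: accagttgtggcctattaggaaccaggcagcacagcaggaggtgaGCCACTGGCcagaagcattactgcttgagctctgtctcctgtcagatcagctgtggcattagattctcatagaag

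The other KRTAP genes were also few in reads in the UBA2 experiment. Of 31, 24 were at 0 in all 4 libraries, the remaining 7 had at most 7 reads in a library, and none reached the test. Together they held 17 and 8 reads without Dox and 11 and 10 with Dox, 46 in all, and the ratio with Dox to without was 0.908 with a 95% interval of 0.483 to 1.69. The other KRTAP2 genes held 35 of the 46. KRTAP2-4 had 7 and 4 against 5 and 3 reads, and KRTAP2-2 had 5 and 4 against 4 and 3. KRTAP2-3 held 85.0% to 94.2% of the reads of its subfamily here, a lower share than in the TFAP2C experiment, although the 2 tables were counted on different annotations. Without the filter 7 could be tested and 0 passed by edgeR, with 0 at an unadjusted p under 0.05 and a lowest adjusted p of 0.562.

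Of the 50 neighbours in the UBA2 table, 12 were at 0 and 21 could be tested, of which 2 rose and 0 fell, where 9.98% of all tested genes passed in either direction and 4.47% as falls. TNS4, a focal adhesion protein, was at 130 and 137 CPM without Dox and at 186 and 168 with Dox, with a log2 fold change of 0.41 (SE 0.056, adjusted p = 2.76e-06 by edgeR). EIF1, a factor of start codon selection, was at 363 and 375 CPM against 453 and 473, with a log2 fold change of 0.33 (SE 0.045, adjusted p = 2.64e-06). The nearest tested genes did not pass. KRT23 had a log2 fold change of -0.25 (adjusted p = 0.133 by edgeR) and KRT13, a keratin of stratified mucosa 440.9 kb from KRTAP2-3, had 0.27 (adjusted p = 0.762). The median over the 21 was -0.010, against -0.00042 over all tested genes. Of the 21, 6 are listed with an interval of more than 42 Mb and count as neighbours only through it.

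Finally, 35 genes of the hair shaft and of cornified hair cells were read, to see whether the pair rose as part of a wider hair programme. In TFAP2C KD, 13 could be tested and 0 passed by edgeR, where 0.740% of all tested genes did, and 0 by the Wald test. At an unadjusted p under 0.05 there were 3 of the 13, where 12.6% of all tested genes were. Of these, KRT32 and KRT81 were higher. PADI3 was lower, with a log2 fold change of -0.71 (adjusted p = 0.0893 by edgeR). The median log2 fold change of the 13 was 0.021. In the libraries labelled UBA2 KD, 13 could be tested, 1 rose and 0 fell, where 9.98% of all tested genes passed and 5.52% rose, with a median of -0.075. A count of 1 in 13 is near that background. That gene was KRT81, a type II hair cortex keratin, with 40 and 64 reads without Dox and 104 and 104 with Dox, a log2 fold change of 1.11 (SE 0.19, adjusted p = 7.57e-05 by edgeR). A rise of at least 1 was seen in 0.209% of the genes tested there. In the TFAP2C experiment KRT81 had 102 and 122 reads against 187 and 138, a log2 fold change of 0.49 that did not pass (adjusted p = 0.272). KRT81, KRT83 and KRT86 are closely similar genes, so how their reads were split is uncertain.

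The 3 most abundant genes of that list in the control libraries were as follows. MSX1, a homeobox factor, had a mean of 161 CPM in control siRNA and 122 without Dox, with log2 fold changes of 0.056 and 0.046. MSX2, of the same family, was at 34.3 and 29.6 CPM, with -0.063 and -0.23 (adjusted p = 0.0731 in the latter by edgeR). LIPH, a lipase of the hair follicle, came next in control siRNA at 31.7 CPM, and DSC3, a desmosomal cadherin, came next without Dox at 22.1 CPM. The summed level of 10 markers of hair cortex and cuticle was 14 to 14.6 CPM in control siRNA and 16.4 to 17 in TFAP2C KD, with KRT33A, KRT33B and KRT35 at 0. Most of this sum was HOXC13, KRT81 and KRT86. Their means were 6.75, 5.02 and 2.17 CPM in control siRNA and 7.45, 6.99 and 1.87 CPM in TFAP2C KD. In the UBA2 experiment the sum was 8.07 to 9.63 CPM without Dox and 10.4 to 12.8 with Dox, with KRT85 at 0 too. With Dox the mean of KRT81 went from 2.60 to 5.68 CPM, whereas that of HOXC13 went from 5.70 to 4.84 CPM. The sum of the epithelial markers also moved with the groups, from 2892 to 3017 CPM in control siRNA to 3248 to 3514 in TFAP2C KD. It went from 2270 to 2285 CPM without Dox to 2556 to 2649 with Dox. With Dox, EPCAM, KRT8, KRT18 and CLDN7 passed as rises (adjusted p = 0.0414, 0.00405, 7.79e-05 and 0.000156 by edgeR), as did 5.52% of all tested genes. CDH1 and KRT19 did not pass there (adjusted p = 0.733 and 0.105 by edgeR). The rise in TFAP2C KD was mostly in KRT19 (mean 1187 to 1396 CPM) and KRT8 (870 to 1035 CPM). There KRT18 and CLDN7 were also higher in mean, EPCAM stayed at 193 CPM and CDH1 went from 125 to 121 CPM. The part of these markers in the rise of the pair was not tested.

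The genes most like each member were found by the distance between log2 CPM values centred within a table. Over the 4 libraries of the TFAP2C experiment, the gene nearest to KRTAP3-1 among 14990 was KRTAP2-3, at a distance of 0.295, followed by NAV3 at 0.317 and DHRS2 at 0.453. Over all 8 libraries, those nearest to KRTAP2-3 among 12157 were NAV3 at 0.730, ZBED2, a zinc finger protein, at 0.933, and EDN1, the precursor of endothelin, at 0.978. NAV3 went from 6.03 and 6.81 CPM to 18.3 and 19.1 in TFAP2C KD, but was at 35.4 and 30.6 CPM without Dox and 35.9 and 31.7 with Dox, where its log2 fold change of 0.038 did not pass (adjusted p = 0.839 by edgeR). ZBED2 was at 33.7 and 33.6 CPM without Dox and 45.9 and 39.2 with Dox, a log2 fold change of 0.34 that passed (adjusted p = 0.00363 by edgeR). In the TFAP2C experiment ZBED2 went from 1.48 and 1.77 CPM to 2.84 and 3.22, a log2 fold change of 0.90 that did not pass (adjusted p = 0.0876 by edgeR). EDN1 had 5 to 17 reads in the libraries of that experiment and passed in neither table (adjusted p = 0.357 and 0.899 by edgeR). The likeness was measured on the values that chose the pair, so it is a description.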

How the data were processed

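mRNA-seq counts of 8 libraries were analysed. The reads, 51 bases and single-end, were aligned by the authors to hg19 (TopHat2) and summarised per gene by HTSeq 0.9.1, and the deposited values are raw read counts, not normalized. The positions and gene types of the TFAP2C table are those of GRCh38 and Ensembl, unlike the stated build, and the strand setting of the counting is not given in the sources used here. The tables were therefore analysed separately. The ChIP-seq libraries were not analysed here.

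Low genes were removed by filterByExpr and libraries scaled by TMM (R 4.3.3). Knockdown and control were compared by the two-sided quasi-likelihood test of edgeR 4.0.16, with Benjamini-Hochberg adjustment over all genes tested (threshold 0.05). Neighbours are genes overlapping the span from 0.5 Mb before to 0.5 Mb after the chromosome 17 KRTAP genes. Alternatives were DESeq2 1.42.0 size factors and Wald test, library size only, no filter, at least 10 counts, a replicate block, all 8 libraries, each library left out, and summed subfamily rows. Windows of 51 bases were matched on both strands of GRCh37, and transcripts were taken from GENCODE. Promoters were matched by symbol to RefSeq (GRCh38.p14). TATATAA was chosen after the sequences were seen. The code was tested on simulated data.

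Named were the pair and its paralogs, the targeted genes, neighbours that passed or lay nearest, hair genes that passed or were the 3 most abundant, and the 3 genes most like each member. The members and lists were chosen with earlier results of these data known. Replicates differed by more than sampling noise (chi-square per degree of freedom 2.55 to 8.97), so none was counted as a duplicate.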

Additional observations from a re-analysis of the deposited data

How the results depend on the processing

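In TFAP2C KD, the log2 fold change of KRTAP3-1 stayed between 1.78 and 1.96 and that of KRTAP2-3 between 1.5 and 1.99 over all alternatives, with both ends from leaving out a control siRNA library. For KRTAP2-3 with Dox, the value was 0.61 both by the Wald test (adjusted p = 0.232) and with all 8 libraries (adjusted p = 0.0816), and it ranged from 0.38 to 0.81 with 1 library left out (adjusted p 0.00142 to 0.342 by edgeR). The log2 ratio of KRTAP3-1 in that experiment, -0.21, ranged from -1.23 to 1.03 with 1 library left out, so both signs occurred. Neighbours past the test in TFAP2C KD went from 0 to 2 (HAP1 and KRT19) without a filter and to 1 (HAP1) with all 8 libraries, and from 0 to 6 with 1 library left out. Hair shaft genes past the test went from 0 to 2 without a filter (KRT81, higher, and PADI3, lower). With all 8 libraries there was 1 (PADI3, lower), and this count too depended on which library was left out. In the libraries labelled UBA2 KD the hair shaft count went from 1 to 2 with library size only. The added gene there, MSX2, was lower. The cause was not tested. Over all genes the calls in TFAP2C KD numbered 111 of 14991 tested, against 398 of 24781 without a filter and 271 of 13179 with all 8 libraries. These calls also depended strongly on which library was left out, with the most without TFAP2C KD replicate 2. In the UBA2 experiment they numbered 1336, against 665 by the Wald test, 696 with all 8 libraries and 833 to 1271 with 1 library left out, the lowest without no Dox replicate 2.

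Replicates share a number, but the labels give no common batch, and the correlation of replicate differences was -0.139 in the TFAP2C and 0.0744 in the UBA2 experiment. With the replicate block the log2 fold changes were 1.87 and 1.74 for KRTAP3-1 and KRTAP2-3 in TFAP2C KD and 0.60 for KRTAP2-3 with Dox. Hair shaft genes past the test were 1 in TFAP2C KD (PADI3, lower) and 2 with Dox (KRT81, higher, and PADI3, lower). Calls over all genes were 172 of 14991 tested in TFAP2C KD and 1308 of 13381 with Dox. A crossed pairing of the TFAP2C libraries, chosen after seeing the data, gave 467 calls among 14991 tested genes. Among them were 4 of the 20 tested neighbours and 1 of the 13 tested hair shaft genes. KRT15, KRT19 and TNS4 were higher, and HAP1 and the hair shaft gene PADI3 were lower. Whether these shares differed from that over all genes was not tested.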

Other observations

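The KRTAP genes of chromosomes 11 and 21 were read as a further background. The TFAP2C table lists 61 of them, of which 52 were at 0 in all 4 libraries and 0 reached the test. KRTAP5-AS1, an antisense transcript of the KRTAP5 genes, had 10 and 8 reads in control siRNA and 9 and 10 in TFAP2C KD, and KRTAP5-10, a gene of the ultrahigh-sulfur KRTAP5 subfamily, had 6 and 5 against 4 and 4. The UBA2 table lists 59, of which 54 were at 0 and 0 reached the test. KRTAP5-9 had 1 and 1 reads without Dox and 5 and 2 with Dox. Reads at the level of KRTAP3-1 and KRTAP2-3 in TFAP2C KD were thus found on no other KRTAP gene of either table.

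The letters CTTTGAAG, a consensus of the hair factor LEF1 that was chosen after the sequences were seen and searched on both strands, were in 2 of the 33 chromosome 17 KRTAP windows, those of KRTAP3-1 and KRTAP4-16, and in 1.23% of all RefSeq windows. In KRTAP3-1 they lie at -246 from the start. KRTAP4-16 had 0 reads in all 4 libraries of the TFAP2C experiment.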
